A study of Homo sapiens with 21 samples.

Results

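Genes of lipid droplet breakdown and storage were followed in 786-O cells with and without JMJD6: the ATGL inhibitors G0S2 and HILPDA, the lipases PNPLA2, LIPE and MGLL, the ATGL co-activator ABHD5, and the droplet coats PLIN2 and PLIN3. In the GRCh38.p14 gene table they lie on chromosomes 1 (G0S2), 7 (HILPDA), 11 (PNPLA2), 3 (ABHD5 and MGLL), 19 (LIPE and PLIN3) and 9 (PLIN2). They were taken by symbol, and all 8 of 8 were found among 26809 named genes and passed the filter on low counts that kept 13530 genes. 786-O is an established human cell line from a clear cell renal carcinoma, known to lack VHL and so to keep hypoxia-inducible factor signalling on without hypoxia. The RNA libraries came from 3 groups of 3: cells infected with JMJD6 guide RNA sg2, cells infected with JMJD6 guide RNA sg4, and cells infected with a control guide, with the genotype given as JMJD6 KO in both JMJD6 groups. The sample titles of the control group name it JMJD6 WT. All groups were grown in DMEM with serum. In the labels the treatment text is about siRNA, but sample titles and RNA extraction speak of guides, and these were followed here. No clone or selection step is named. The labels name triplicates but no separate cultures, so the p-values measure the spread between these libraries, which may be technical. The series also holds JMJD6 and H3K4me3 ChIP samples, which are not used here.

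Triglyceride in a droplet is broken down by a chain of lipases. ATGL, the product of PNPLA2, takes off the first fatty acid, hormone-sensitive lipase (LIPE) acts on the diacylglycerol left, and monoacylglycerol lipase (MGLL) finishes the chain. ABHD5, also called CGI-58, switches ATGL on, G0S2 and HILPDA bind ATGL and hold it back, and the perilipins PLIN2 and PLIN3 cover the droplet surface. Clear cell renal carcinoma is named for the lipid and glycogen that its cells store.

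The stretch before the start of a gene is shown for the inhibitor G0S2, the droplet coat PLIN2 and the lipase PNPLA2, because hypoxia-inducible factors bind a short core and this pathway holds known hypoxia genes. Each run is the 250 bases before the transcription start in the RefSeq promoter table of GRCh38.p14, 5′ to 3′ on the strand of the gene. Capitals mark the cores ACGTG and GCGTG on either strand, so that CACGT and CACGC are matches on the opposite strand; the CACGTG of PLIN2 is ACGTG on both strands, overlapping. The G0S2 run is chr1:209675162-209675411 on the + strand, the PLIN2 run chr9:19127493-19127742 on the − strand and the PNPLA2 run chr11:818664-818913 on the + strand.
G0S2: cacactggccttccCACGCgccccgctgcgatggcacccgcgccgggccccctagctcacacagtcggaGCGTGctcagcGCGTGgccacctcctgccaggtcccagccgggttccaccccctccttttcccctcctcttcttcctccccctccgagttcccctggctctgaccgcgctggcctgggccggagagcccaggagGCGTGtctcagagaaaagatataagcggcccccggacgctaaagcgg
PLIN2: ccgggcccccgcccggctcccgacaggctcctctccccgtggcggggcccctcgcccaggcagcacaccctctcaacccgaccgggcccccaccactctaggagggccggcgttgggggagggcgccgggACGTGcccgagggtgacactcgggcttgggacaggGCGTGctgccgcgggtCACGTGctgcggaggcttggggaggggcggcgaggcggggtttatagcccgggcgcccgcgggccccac
PNPLA2: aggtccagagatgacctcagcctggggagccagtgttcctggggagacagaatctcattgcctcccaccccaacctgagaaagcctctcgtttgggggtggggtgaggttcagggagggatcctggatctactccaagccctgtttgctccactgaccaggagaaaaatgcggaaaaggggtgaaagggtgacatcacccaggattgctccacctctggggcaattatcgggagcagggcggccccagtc
G0S2 held 4 separate matches, starting 236, 181, 170 and 47 bases before its start, all of them GCGTG. PLIN2 held 3 separate stretches, starting 120, 85 and 69 bases before its start, and the PNPLA2 run held neither core. Of the runs not shown, PLIN3 also held 3 stretches, starting 220, 182 and 35 bases before its start, ABHD5 held 1 in 2 of its 3 runs, and LIPE held 0 in both of its runs. Of the 15862 such runs of tested genes 54.7% held at least 1 core, 8.3% at least 3 stretches and 2.7% at least 4. These matches are letters in a window and were not tested for binding. Of the 8 genes, 6 had a run in the table.

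Depth ranged from 14224263 to 16300347 estimated counts a library. JMJD6, an oxygenase of the JmjC family, was at 13.4, 11.3 and 12.9 TPM (transcript abundance per length, scaled to the same sum in every library) with sg2 and at 8.69, 10.4 and 7.56 TPM with sg4, against 32.7, 32.6 and 36.8 TPM with the control guide, which goes with the labels. Of the kidney carcinoma markers 8 of 8 exceeded 1 TPM in at least 1 library, PAX8 among them. Their sum was 6930 to 7447 TPM in knockout libraries and 6747 to 7101 TPM in controls. Most of it was VIM, with means of 5565 TPM in knockouts and 5452 TPM in controls. CA9 was scarce, at 0.630 to 2.04 TPM in knockouts and 1.27 to 1.77 TPM in controls. Of 9 adipocyte markers in the files, 6 were at 0 in every library, among them ADIPOQ, LEP and CIDEC, and their sum was 4.00 to 9.50 TPM in knockouts and 8.85 to 10.9 TPM in controls. The 7 fibroblast and pericyte markers summed to 15.8 to 25.3 TPM in knockouts, against 30.1 to 61.0 TPM in controls, with 0 of the 7 at 0 throughout. That sum is mostly ACTA2, at means of 13.1 TPM in knockouts and 21.9 TPM in controls, and LUM, at 5.64 and 11.5 TPM. PDGFRB lay the other way, at 0.385 and 0.345 TPM. Control library 1 had the most LUM (18.5 TPM), DCN (5.31 TPM) and COL3A1 (2.18 TPM). Of the 7 monocyte and macrophage markers only 3 exceeded 1 TPM in a library. PTPRC reached at most 0.0734 TPM in knockouts and 0 in controls. The 7 summed to 54.0 to 64.8 TPM in knockouts, against 67.1 to 87.6 TPM in controls. That sum is mostly CD68, at 57.0 ± 4.67 TPM in knockouts and 72.2 ± 11.4 TPM in controls (SD, n = 6 and 3). CD68 lay below all controls in 6 of 6 knockout libraries, as for 11.7% of all tested genes in TPM. CSF1R lay the other way, at 2.05 ± 0.322 TPM in knockouts and 1.18 ± 0.0608 TPM in controls (SD, n = 6 and 3). It was above all controls in 6 of 6, as for 3.45% of all tested genes in TPM. The part of any of these lists in the results was not tested. Endothelial markers summed to at most 0.160 TPM, hepatocyte markers to at most 0.189 TPM, and neutrophil markers to 0 to 4.14 TPM in knockouts and 0.494 to 3.75 TPM in controls. COL1A2, a fibroblast gene, had 298 estimated counts in control library 1 and 45 in sg4 library 3, and at most 22 elsewhere. Short transcripts ran high in sg4 libraries 2 and 3 and low in control library 3: the shortest 10% of tested genes stood at 0.08, 0.11 and −0.13 on the log2 scale. In these bulk samples fewer cells of a type and less RNA per cell cannot be told apart.

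G0S2, the ATGL inhibitor first described as a gene of the cell cycle switch out of rest, was the only gene of the 8 that passed the test over all genes. Its level was 117, 108 and 150.3 TPM with sg2 and 124, 116 and 151 TPM with sg4, against 88.5, 79.2 and 75.6 TPM with the control guide. Every one of the 6 knockout libraries lay above all 3 controls, with library 3 of each JMJD6 guide highest. The means were 125 ± 22.3 TPM with sg2, 130.1 ± 18.4 TPM with sg4 and 81.1 ± 6.62 TPM with the control guide (SD, n = 3 each). G0S2 rose by a log2 fold change of 0.73 ± 0.10 for the mean of both guides (SE, 95% interval 0.52 to 0.94), with an adjusted p of 2.83e-05 by the edgeR quasi-likelihood test, a fold of 1.66. By the same test 13.9% of all genes were called in either direction and 6.92% were called higher. For non-overlap, 3.45% of all tested genes lay above every control in all 6 knockout libraries on the TPM scale, and 7.76% did on the CPM scale (counts scaled by edgeR's normalised library size, with no correction for gene length).

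Each guide gave the same call for G0S2 by itself. With sg2 the log2 fold change was 0.69 ± 0.11 (SE, edgeR adjusted p = 3.02e-04, 95% interval 0.45 to 0.92), where 5.0% of genes were called higher and 5.36% lower, 10.4% in all. With sg4 it was 0.77 ± 0.11 (SE, edgeR adjusted p = 1.43e-04, 95% interval 0.53 to 1.00), where 4.65% were called higher and 3.78% lower, 8.43% in all. With either guide 0 of the other 7 genes were called. The guides share their 3 controls, and 2.76% of tested genes were called higher with both. The difference between guides was 0.08 ± 0.11 on the log2 scale, sg4 over sg2 (SE, 95% interval −0.14 to 0.31, edgeR adjusted p = 0.842). G0S2 has 1 transcript in the files, of 963 bases, and only 4.8% of tested genes are shorter. With the length trend of each library taken out, its log2 fold change was 0.65 (edgeR adjusted p = 3.52e-05), and without control library 3 and sg4 libraries 2 and 3 it was 0.61 (edgeR adjusted p = 0.00274). G0S2 lies within the antisense gene HSD11B1-AS1 in the GRCh38.p14 gene table; strand use in counting is not given, and HSD11B1-AS1 itself had 0 to 6 estimated counts a library, beside 362 to 864 for G0S2.

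**Figure D1:**
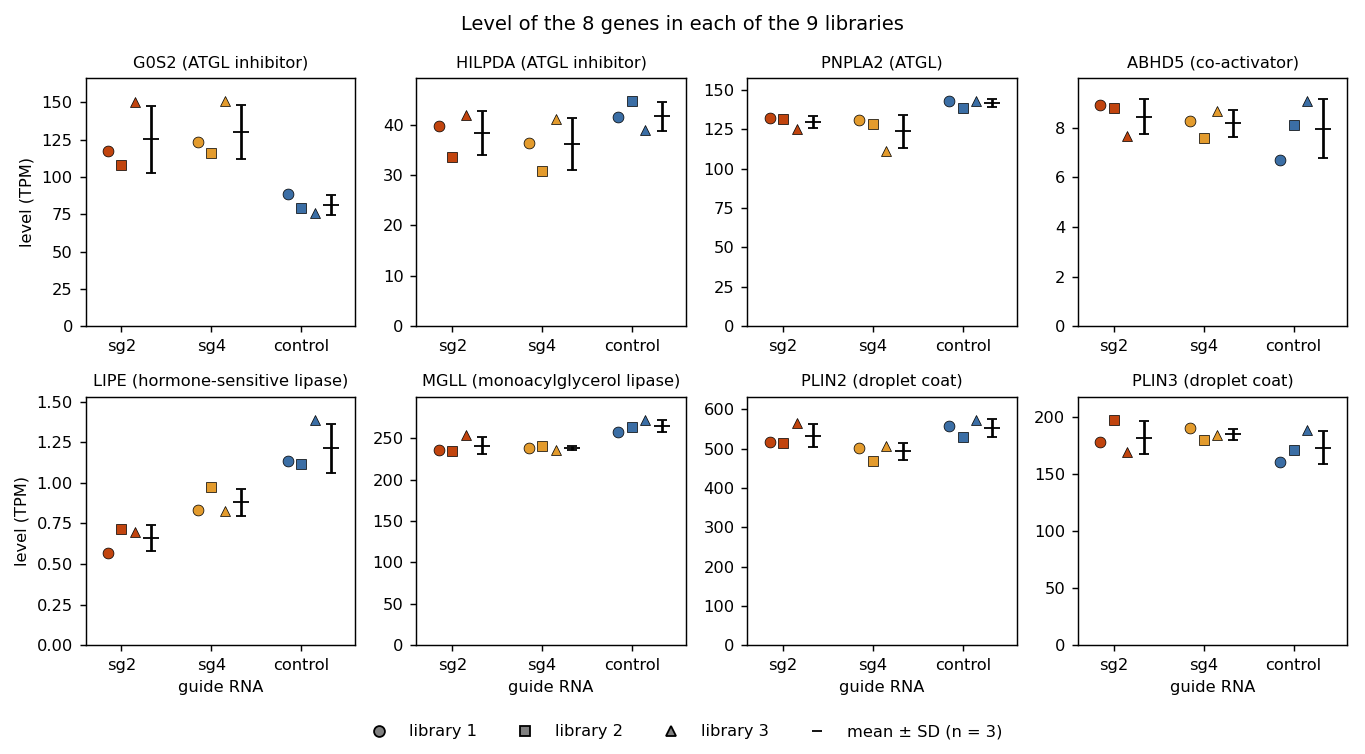
Level in TPM (vertical axes, each from 0) of the 8 genes in every library, with sg2 and sg4 left of the control guide; symbols give the library number, and the bar beside each group is the mean ± SD of its 3 libraries. G0S2 is above all controls in 6 of 6 knockout libraries, while PNPLA2, LIPE and MGLL are below all controls in 6 of 6 and HILPDA, ABHD5, PLIN2 and PLIN3 overlap them. Of all tested genes 3.45% lie above all controls in this way and 11.7% below.

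HILPDA, the other inhibitor and a gene known to be induced by hypoxia, was not called. Its level was 39.6, 33.5 and 41.8 TPM with sg2 and 36.4, 30.9 and 41.2 TPM with sg4, against 41.4, 44.7 and 38.9 TPM with the control guide. The groups overlapped, with library 2 of each JMJD6 guide lowest. For both guides its log2 fold change was −0.10 ± 0.099 (SE, 95% interval −0.30 to 0.10, edgeR adjusted p = 0.573). The 2 transcripts of HILPDA shared its TPM alike: the leading one, of 1412 bases, held 61.1 ± 2.93% in the 6 knockout libraries and 62.3 ± 2.85% in the 3 controls (SD).

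PNPLA2, which encodes ATGL, lay lower in every knockout library without passing the test. Its level was 132, 131 and 125 TPM with sg2 and 131, 128 and 111 TPM with sg4, against 143, 138 and 143 TPM with the control guide. No knockout library reached a control, on the TPM or the CPM scale, and the lowest were the library 3 of each guide, in which G0S2 was highest. The log2 fold change was −0.10 ± 0.051 (SE, 95% interval −0.20 to 0.00, edgeR adjusted p = 0.209). Non-overlap of this kind was common: 11.7% of tested genes lay below every control in all 6 knockout libraries on the TPM scale and 7.18% on the CPM scale, and 15.1% did not overlap in either direction on the TPM scale. The median tested gene was itself at −0.06 on the log2 TPM scale and at −0.004 on the log2 CPM scale, knockout over control.

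The ratio of G0S2 to PNPLA2 mRNA in TPM was 0.887, 0.820 and 1.20 with sg2 and 0.946, 0.902 and 1.35 with sg4, against 0.620, 0.572 and 0.530 with the control guide. All 6 knockout ratios lay above all 3 control ratios, with means of 1.02 ± 0.210 in knockout libraries and 0.574 ± 0.0452 in controls (SD, n = 6 and 3). The inhibitor's mRNA thus stood near that of the lipase in the knockouts and below it in each control. The HILPDA to PNPLA2 ratio averaged 0.296 ± 0.0489 in knockouts and 0.295 ± 0.0254 in controls and overlapped (SD, n = 6 and 3). These are ratios of mRNA and carry no test. The separation of the G0S2 to PNPLA2 ratio is no further result. It follows from G0S2 lying above and PNPLA2 below all 3 controls in all 6 knockout libraries.

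**Figure D2:**
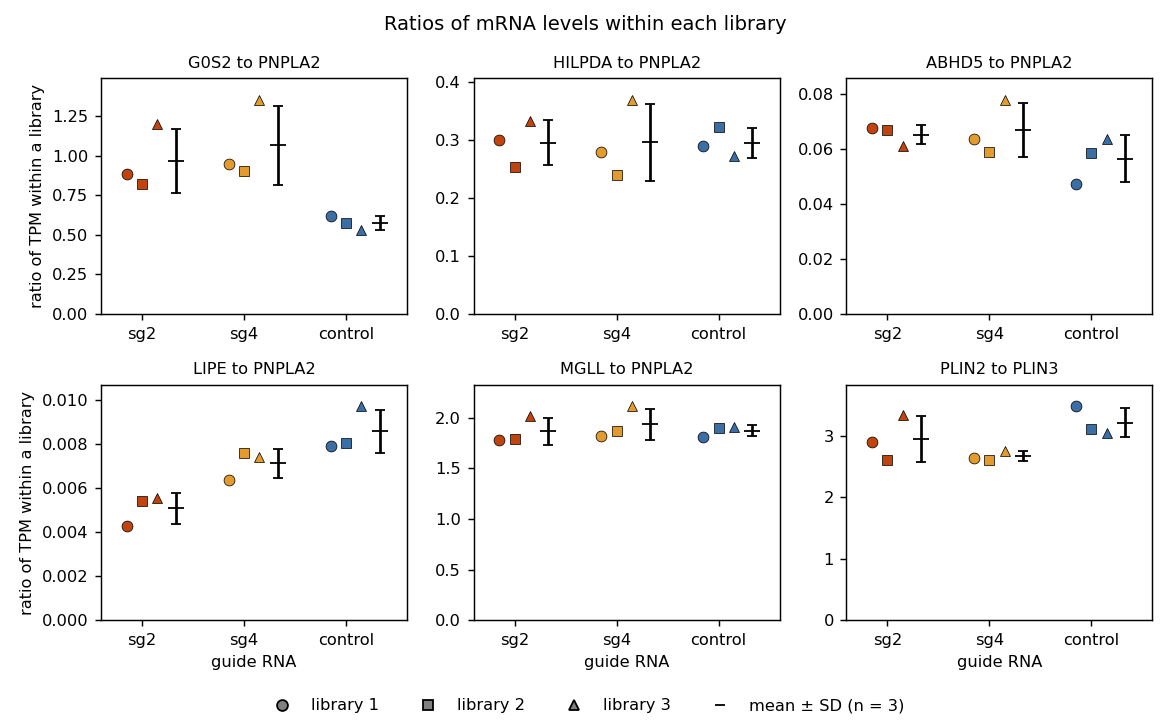
Ratio of TPM within each library (vertical axes, each from 0) for 6 pairs of genes, with sg2 and sg4 left of the control guide; bars are the mean ± SD of 3 libraries. G0S2 to PNPLA2 lies between 0.820 and 1.35 in knockout libraries, above the control range of 0.530 to 0.620, LIPE to PNPLA2 lies below its control range, and the other 4 ratios overlap.

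ABHD5, the co-activator, did not separate the groups. Its level was 8.92, 8.78 and 7.66 TPM with sg2 and 8.29, 7.57 and 8.66 TPM with sg4, against 6.71, 8.10 and 9.08 TPM with the control guide. The controls spanned all 6 knockout values on the TPM scale, and 3 of 6 lay above all controls on the CPM scale. The log2 fold change was 0.12 ± 0.097 (SE, 95% interval −0.08 to 0.32, edgeR adjusted p = 0.460). Without control library 1 and sg4 library 3, which had most COL1A2, it was −0.0148 (edgeR adjusted p = 0.963). ABHD5 overlaps ANO10 in the gene table, and ANO10 had 977 to 1257 estimated counts a library beside 264 to 384 for ABHD5, so counts near their shared bases are uncertain.

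LIPE, the hormone-sensitive lipase that works downstream of ATGL, was the least abundant of the 8 and had the widest error. Its level was 0.567, 0.716 and 0.698 TPM with sg2 and 0.835, 0.977 and 0.828 TPM with sg4, against 1.13, 1.119 and 1.39 TPM with the control guide. Every knockout library was below every control, as for 11.7% of tested genes on the TPM scale. These levels rest on 17 to 29 estimated counts in a knockout library and 31 to 35 in a control. For both guides its log2 fold change was −0.61 ± 0.27 (SE, 95% interval −1.17 to −0.05), which did not pass over all genes (edgeR adjusted p = 0.147). It was −0.84 ± 0.33 with sg2 and −0.37 ± 0.31 with sg4 (SE, edgeR adjusted p = 0.102 and 0.522), and the difference between the guides was 0.47 ± 0.34, sg4 over sg2 (SE, 95% interval −0.22 to 1.16, edgeR adjusted p = 0.662). LIPE overlaps LIPE-AS1, which had 0 to 8 estimated counts a library. The sums of the adipocyte markers, given above, overlapped between knockouts and controls. They are mostly CFD, at 7.39 ± 1.95 TPM in knockouts and 9.63 ± 1.01 TPM in controls (SD, n = 6 and 3). PLIN1, which did not pass the filter on low counts, averaged 0.194 TPM in knockouts and 0.461 TPM in controls. It lay below all controls in 6 of 6, as for 11.7% of tested genes. FABP4 was at 0.243 TPM in sg2 library 2, 0.219 TPM in sg4 library 2 and 0 elsewhere. A link of these markers to LIPE was not tested.

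MGLL, the last lipase of the chain, was abundant and slightly lower without passing the test. Its level was 236, 235 and 253 TPM with sg2 and 238, 240.2 and 235 TPM with sg4, against 258, 263 and 272 TPM with the control guide. No knockout library reached a control on the TPM or the CPM scale, as for 11.7% and 7.18% of all tested genes. The knockout mean of MGLL was 0.9055 of the control mean in TPM and 0.9423 of it in CPM. Its log2 fold change was −0.09 ± 0.043 (SE, 95% interval −0.17 to 0.00, edgeR adjusted p = 0.199). The MGLL to PNPLA2 ratio of TPM averaged 1.90 ± 0.137 in knockouts and 1.87 ± 0.0552 in controls and overlapped (SD, n = 6 and 3). Of its 3 transcripts the leading one, of 4235 bases, held 38.5 ± 0.523% of the TPM in knockouts and 38.9 ± 0.677% in controls (SD, n = 6 and 3).

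PLIN2, the coat that is typical of lipid-laden cells outside fat, had the highest level of the 8. It stood at 518, 514 and 566 TPM with sg2 and at 502, 469 and 508 TPM with sg4, against 557, 529 and 574 TPM with the control guide. The groups overlapped: on the TPM scale 5 of 6 knockout libraries lay below all controls, and on the CPM scale 4 of 6 did and 1 lay above. The log2 fold change was −0.05 ± 0.046 (SE, 95% interval −0.14 to 0.05, edgeR adjusted p = 0.554). Its coding transcript of 2011 bases held 58.9 ± 0.677% of its TPM in knockouts and 59.9 ± 0.722% in controls (SD, n = 6 and 3), the rest being a transcript that RefSeq lists as non-coding.

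PLIN3, a coat protein that moves between the cytosol and new droplets, went the other way without passing the test. Its level was 178, 197 and 169 TPM with sg2 and 189.8, 180.0 and 184 TPM with sg4, against 160.1, 170.5 and 188 TPM with the control guide. The groups overlapped: 2 of 6 knockout libraries lay above all controls on the TPM scale and 4 of 6 on the CPM scale. For both guides the log2 fold change was 0.14 ± 0.055 (SE, 95% interval 0.03 to 0.26, edgeR adjusted p = 0.0829). Without sg2 library 3 it was 0.17 and passed (edgeR adjusted p = 0.0365). Its leading transcript, of 2340 bases, held 38.4 ± 0.952% in knockouts and 38.4 ± 1.64% in controls (SD, n = 6 and 3). The ratio of PLIN2 to PLIN3 in TPM was below all controls in 5 of 6 knockout libraries, with means of 2.81 ± 0.286 in knockouts and 3.21 ± 0.235 in controls (SD, n = 6 and 3).

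Transcript use did not shift detectably in the 4 genes with more than 1 transcript. By a 2-sided exact permutation test over all 84 ways to assign the labels, the share of the leading transcript differed with p = 0.560 for HILPDA, p = 0.393 for MGLL, p = 0.119 for PLIN2 and p = 0.952 for PLIN3. Adjusted over these 4 genes the exact permutation p was 0.746, 0.746, 0.476 and 0.952 in the same order. The smallest p that this design can give is 0.0119. How Salmon divides reads between such similar transcripts bears on these shares, and counts of single transcripts are less certain than those of genes.

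**Figure D3:**
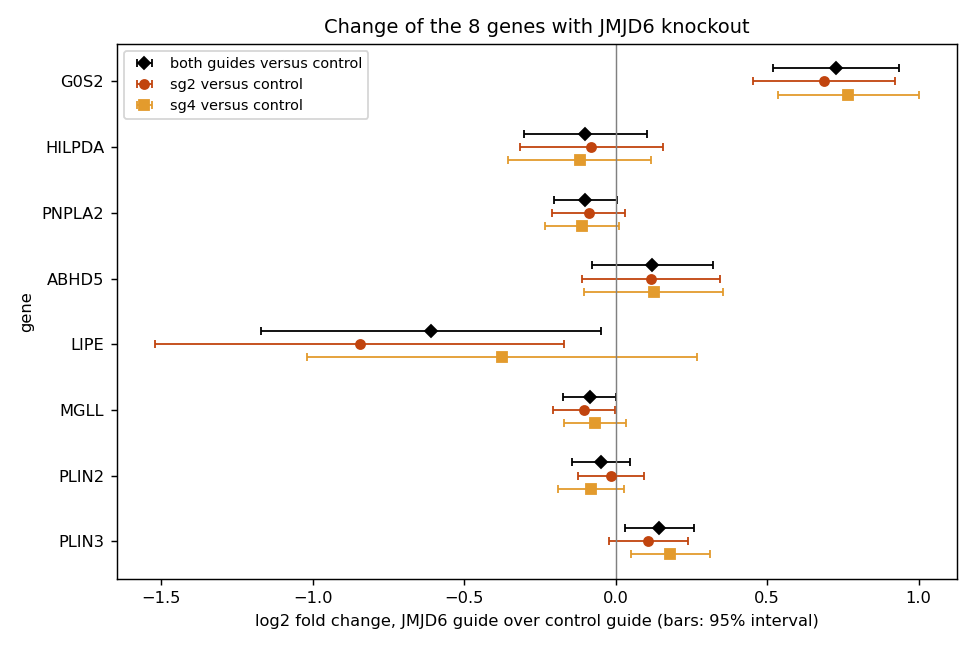
Log2 fold change of the 8 genes (horizontal axis, JMJD6 guide over control guide) for both guides, sg2 and sg4, with bars for the 95% interval of the edgeR fit. The G0S2 intervals lie to the right of 0 in all 3 comparisons, while the other genes lie near 0 except LIPE, whose intervals are the widest.

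Of the 8 genes 1 was called higher and 0 were called lower for the mean of both guides, beside 6.92% and 6.95% of all tested genes. PNPLA2, MGLL, LIPE, HILPDA and PLIN2 had a negative log2 fold change and G0S2, ABHD5 and PLIN3 a positive one. The median of the 8 was −0.07, beside −0.006 over all tested genes. Between the guides 0 of the 8 were called, beside 0.0591% of all tested genes, and 0 of the 8 had an unadjusted p under 0.05 by edgeR, the smallest being 0.174 for LIPE.

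In knockout libraries the order by mean TPM was PLIN2 at 513, MGLL at 239.5, PLIN3 at 183, G0S2 at 128, PNPLA2 at 126, HILPDA at 37.2, ABHD5 at 8.31 and LIPE at 0.770. Only G0S2 and PNPLA2 overlapped among neighbours in that order, with G0S2 above PNPLA2 in 2 of 6 libraries. In controls the order was PLIN2 at 553, MGLL at 264, PLIN3 at 173, PNPLA2 at 141, G0S2 at 81.1, HILPDA at 41.7, ABHD5 at 7.96 and LIPE at 1.21, with no overlap between neighbours. PLIN2 stood above 98.2% of tested genes in knockouts and 98.3% in controls, and G0S2 above 90.3% in knockouts and 83.8% in controls. LIPE stood above 4.7% in knockouts and 7.1% in controls.

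Among other lipases, 16 of 21 listed genes were tested, of which 3 rose and 2 fell, with a median log2 fold change of −0.004. Beside this and the other lists below, 6.92% of all tested genes were called higher and 6.95% lower. LIPG, endothelial lipase, a secreted phospholipase of lipoproteins, averaged 6.90 ± 0.789 TPM in knockouts and 4.72 ± 0.246 TPM in controls (SD, n = 6 and 3). It rose by 0.61 ± 0.12 on the log2 scale (SE, edgeR adjusted p = 0.00122). NCEH1, a cholesteryl ester hydrolase, averaged 60.9 ± 2.85 TPM in knockouts and 49.0 ± 2.27 TPM in controls (SD, n = 6 and 3) and rose by 0.37 ± 0.053 (SE, edgeR adjusted p = 4.26e-05). PNPLA3, a close relative of ATGL and known for competing with it for ABHD5, was scarce at 3.16 ± 0.254 TPM in knockouts and 2.04 ± 0.373 TPM in controls (SD, n = 6 and 3). Its log2 fold change of 0.70 ± 0.20 was called (SE, edgeR adjusted p = 0.0234), but not without control library 1 (0.75, edgeR adjusted p = 0.0582) or control library 2 (0.56, edgeR adjusted p = 0.124).

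PNPLA6, a lysophospholipase of the same family, averaged 56.4 ± 3.53 TPM in knockouts and 70.1 ± 5.11 TPM in controls (SD, n = 6 and 3) and fell by 0.26 on the log2 scale (SE 0.055, edgeR adjusted p = 0.00275). CES2, a carboxylesterase, averaged 33.3 ± 1.43 TPM in knockouts and 40.7 ± 0.685 TPM in controls (SD, n = 6 and 3) and fell by 0.23 (SE 0.055, edgeR adjusted p = 0.00559). Each of these 5 lipases had all 6 knockout libraries on one side of all 3 controls in TPM, beside 15.1% of all tested genes. The uncalled lipases DDHD2 and ABHD16A also lay below all controls in 6 of 6. LPL, CES1 and AADAC, lipases known from fat and liver, did not pass the filter on low counts.

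Among other droplet proteins, 16 of 23 listed genes were tested, 0 rose and 1 fell, with a median log2 fold change of 0.02. The gene that fell was PCYT1A, the enzyme that paces phosphatidylcholine synthesis at growing droplets. It averaged 32.3 ± 3.86 TPM in knockouts and 40.4 ± 3.35 TPM in controls (SD, n = 6 and 3), with a log2 fold change of −0.26 ± 0.085 (SE, edgeR adjusted p = 0.0393). The call was lost in 10 of 19 alternatives, with control library 2 left out among them (−0.18, edgeR adjusted p = 0.263). PLIN1 and PLIN5, the perilipins of fat and of oxidative tissue, and CIDEA and CIDEC did not pass the filter, and PLIN4 was not matched.

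Of the regulators of lipolysis and of the delivery of ATGL to droplets, 26 of 30 were tested, 1 rose and 1 fell, with a median log2 fold change of 0.02. HSPA8, a constitutive chaperone that in chaperone-mediated autophagy helps take perilipins off droplets, stood at 594 to 908 TPM in knockouts and 537 to 643 TPM in controls. It rose by 0.40 ± 0.077 on the log2 scale (SE, edgeR adjusted p = 8.66e-04), with 5 of 6 knockout libraries above all controls. PPARA, a nuclear receptor for fatty acids, averaged 10.7 ± 0.888 TPM in knockouts and 12.9 ± 0.885 TPM in controls (SD, n = 6 and 3). Its log2 fold change was −0.21 ± 0.067 (SE, edgeR adjusted p = 0.0357), a call lost in 11 of 19 alternatives, with control library 3 left out among them (−0.17, edgeR adjusted p = 0.178). PPARG, the relative that drives G0S2 in fat cells, was at 47.5 ± 3.08 TPM in knockouts and 46.9 ± 1.84 TPM in controls (SD, n = 6 and 3). Its log2 fold change was 0.08 ± 0.070 (SE, edgeR adjusted p = 0.523).

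Triglyceride synthesis, the opposite arm, had 14 of 16 genes tested, 1 higher and 2 lower, with a median log2 fold change of −0.05. DGAT1, the enzyme of the last step and named in the title of the series, averaged 15.1 ± 1.14 TPM in knockouts and 22.0 ± 1.16 TPM in controls (SD, n = 6 and 3). It fell by 0.49 on the log2 scale (SE 0.077, edgeR adjusted p = 1.14e-04). LPIN3, a phosphatidate phosphatase, fell by 0.31 (SE 0.077, edgeR adjusted p = 0.00860), and the call was lost without control library 1 (−0.29, edgeR adjusted p = 0.0539) or 3 (−0.25, edgeR adjusted p = 0.0744). ACSL4, which activates long polyunsaturated fatty acids, rose by 0.24 ± 0.054 (SE, edgeR adjusted p = 0.00438). Over the 4 lists 72 of 90 genes were tested, with 5 higher and 6 lower, beside the shares of 6.92% and 6.95% over all genes.

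**Figure D4:**
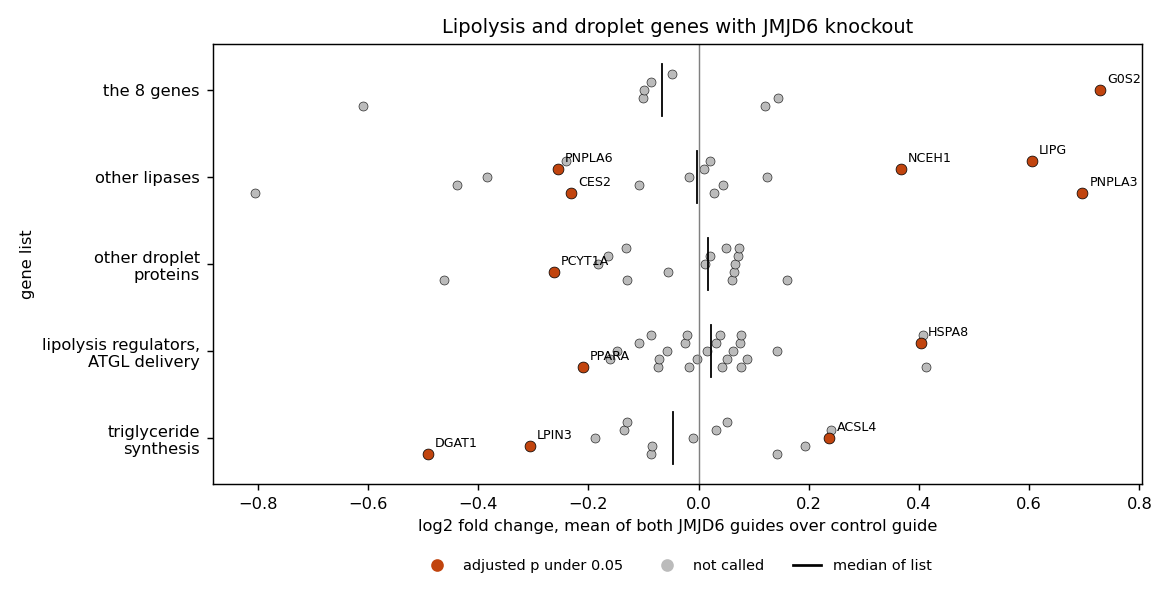
Log2 fold change of each tested gene (horizontal axis, mean of both JMJD6 guides over control guide) in the 8 genes and 4 lists of related genes, 1 point a gene, spread vertically for legibility only; named points were called by edgeR at an adjusted p under 0.05, and lines are list medians. G0S2 at 0.73 lies farthest to the right, PNPLA3 and LIPG follow, and every median lies between −0.07 and 0.02.

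Across the 9 libraries the genes with a pattern most like that of G0S2 were TGM2, GEM and RAB6B, by Pearson correlation of log2 CPM over 11279 genes compared. The correlation was 0.984 for TGM2, 0.976 for GEM and 0.973 for RAB6B, and these libraries fall into the same groups that differ in G0S2. TGM2, transglutaminase, averaged 217 TPM in knockouts and 163 TPM in controls, with a log2 fold change of 0.49 ± 0.054 (SE, edgeR adjusted p = 1.64e-06). GEM, a small GTP-binding protein, had a log2 fold change of 0.31 ± 0.085 (SE, edgeR adjusted p = 0.0158), a call lost without control library 2 (0.28, edgeR adjusted p = 0.0721) or 3 (0.29, edgeR adjusted p = 0.0716). RAB6B was not called (0.37 ± 0.17 on the log2 scale, SE, edgeR adjusted p = 0.147). HILPDA was most like MRPS6, DENND1B and STK24, with correlations of 0.947, 0.946 and 0.939. PLIN2 was most like WARS1, ZMIZ1-AS1 and PSTPIP2, with correlations of 0.949, 0.942 and 0.932.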

How the data were processed

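RNA-seq of 9 libraries of 786-O cells was used, 3 per guide. Per the file headers, the authors deposited Salmon output with a length, an effective length, an estimated count and a TPM (divided by effective length and scaled per library) for each transcript. Whole numbers were found for all estimated counts; how they were rounded is not given in the sources used here. The submitters' processing notes list Salmon, STAR 2.5.2b and cutadapt 1.12 without their roles. Annotation and strand setting are not given in the sources used here. Of 60422 transcript accessions, 58031 (96.0%) matched the RefSeq gene table of GRCh38.p14, used for names and neighbours, and 1.33% to 1.65% of a library's counts were unmatched. Counts and TPM were summed per gene.

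Estimated counts, rounded to whole numbers, were tested with edgeR 4.0.16 (R 4.3.3): TMM, filterByExpr at a minimum count of 10, 1 quasi-likelihood fit of all 9 libraries with group alone, 2-sided, Benjamini-Hochberg over 13530 genes, called at an adjusted p under 0.05. The fit was tested on simulated data. Ratios and levels used TPM, and CPM used edgeR's library sizes. Named were the 8 genes, JMJD6, DGAT1, COL1A2, every called gene of 4 lists, and the 3 genes most like G0S2, HILPDA and PLIN2 among those whose log2 CPM averaged 2 or more; LPL, PLIN1, PPARG and other uncalled genes were added after their values were seen. The genes and lists were chosen with earlier results of these data known. Alternatives covered scaling, DESeq2 1.42.0, filter, length, block, samples and each library left out.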

Additional observations from a re-analysis of the deposited data

How the results depend on the processing

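G0S2 kept its direction and its call for both guides in 19 of 19 alternatives, at a log2 fold change of 0.61 to 0.80 (edgeR and DESeq2 adjusted p from 2.11e-17 to 0.00274). Deviations of same-numbered libraries from their group means had correlations of −0.141 to 0.0525 over 9 pairs. With 3 libraries a group these values cannot decide whether a number marks a shared culture or day, which the labels do not say. With the replicate block G0S2 was at 0.71 (edgeR adjusted p = 9.57e-05), 1527 genes were called for both guides against 1877 without it, and PPARA lost its call (−0.21, adjusted p = 0.0623); the block changed no other call among the 8 genes, the called genes of the lists, TGM2, GEM and RAB6B. Leaving out each library in turn gave a log2 fold change of 0.02 to 0.20 for ABHD5, 0.10 to 0.19 for PLIN3 and −0.65 to −0.52 for LIPE, both guides against control, and 938 to 1878 called genes, lowest without control library 1 (938) and control library 3 (1045).

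Leaving out control library 1 and sg4 library 3 (most COL1A2), or control library 3 and sg4 libraries 2 and 3 (a trend with length), was chosen after seeing the data. The first gave ABHD5 −0.0148 (both guides) and −0.0407 (sg4), and 788 called genes. The second gave 1116 called genes. Calls lost without the first libraries, with their log2 fold change and edgeR adjusted p, were ACSL4 (0.20, 0.0748), CES2 (−0.22, 0.0665), LPIN3 (−0.27, 0.0895), GEM (0.32, 0.0609), PNPLA3 (0.76, 0.0758), PCYT1A (−0.24, 0.121) and PPARA (−0.21, 0.133). Without the second ones they were PNPLA6 (−0.19, 0.0893), GEM (0.26, 0.122), PNPLA3 (0.81, 0.0673) and PCYT1A (−0.21, 0.164). Each kept its direction, with fewer libraries in the fit. LIPG, NCEH1, HSPA8, DGAT1 and TGM2 kept theirs in all 19 alternatives.

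Called genes ranged over the alternatives from 731 to 1656 with sg2, from 294 to 1439 with sg4 and from 0 to 72 between the guides, beside 1402, 1141 and 8. With each library left out, HILPDA with sg2 ran from −0.140 to 0.0037 and PLIN2 with sg2 from −0.0547 to 0.0098. Between the guides the log2 fold change, sg4 over sg2, ran from −0.0561 to 0.233 for G0S2, −0.157 to 0.0591 for HILPDA, −0.0567 to 0.0336 for PNPLA2 and −0.0636 to 0.0561 for ABHD5. There, without the COL1A2 libraries, G0S2 was at −0.0563, PNPLA2 at 0.0333 and ABHD5 at −0.0517; without the length-trend libraries, G0S2 was at −0.0349, PNPLA2 at 0.0177, ABHD5 at −0.0151 and MGLL at −0.00621. The PLIN3 leading transcript share, knockout minus control, ran from −0.508 to 0.918 percentage points. PLIN3 with sg4 was called in only 2 of 19 alternatives. These were no filter on low counts (0.18, edgeR adjusted p = 0.0360) and sg2 library 2 left out (0.18, edgeR adjusted p = 0.0462). DESeq2 gave no adjusted p for LIPE. The cause of these changes was not tested. LIPE rests on 17 to 35 estimated counts a library.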
